A study of Mus musculus with 18 samples.

Results

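The glycolytic enzymes described here were the 10 genes Hk2, Gpi1, Pfkp, Pfkl, Aldoa, Gapdh, Pgk1, Pgam1, Eno1 and Ldha, chosen by gene symbol from the 23420 rows of a raw read count table. Their transcripts were followed in NIH-3T3 cells, an immortalized mouse embryonic fibroblast line, either wild-type (WT) or Nrf1KO, in which the transcription factor gene Nfe2l1, whose protein is called Nrf1, had been knocked out with CRISPR/Cas9. Each line was treated with the vehicle DMSO or with 200 nM carfilzomib (CFZ), an irreversible proteasome inhibitor, for 6 h or 24 h, giving 6 groups of 3 libraries and 18 libraries in all. The labels call the replicates biological, give no time for the DMSO cultures, and do not say whether the Nrf1KO line is 1 clone, so a difference between the lines is a difference between these lines.

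Glycolysis converts glucose to pyruvate in the cytosol. Hexokinase, phosphofructokinase and pyruvate kinase catalyse its irreversible steps, and aldolase divides the hexose into a pair of trioses that glyceraldehyde-3-phosphate dehydrogenase, phosphoglycerate kinase, phosphoglycerate mutase and enolase then carry to phosphoenolpyruvate. Lactate dehydrogenase reduces pyruvate to lactate and returns NAD+ to the pathway. Many of these genes are textbook targets of HIF-1, which binds hypoxia response elements, and of Myc, which binds E-boxes.

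Total counts ran from 8333148 to 23917081 per library with a median of 14419832. Nfe2l1 was lower in the libraries labelled Nrf1KO than in WT under every treatment. In DMSO it was at 180.1 ± 5.27 against 447.6 ± 9.87 CPM (scaled read counts, defined in the next paragraph; SD, n = 3). That is a log2 difference of -1.31 ± 0.034 (SE, edgeR adjusted p = 1.6e-24). The gap was smaller at 6 h, with 418.8 ± 7.19 against 641.9 ± 12.4 CPM (-0.62 ± 0.033, adjusted p = 1.1e-16). At 24 h it was -1.47 ± 0.034 (adjusted p = 2.0e-26). Transcript thus remained in the knockout line. The row named Nrf1 in the table is another gene, nuclear respiratory factor 1. All 10 fibroblast markers were expressed. Of 5 epithelial markers, Epcam and Krt18 had no reads in any library, Krt8 and Krt19 at most 3, and Cdh1 reached 13 CPM (338 reads at most). The summed epithelial level was 5.96 to 6.5 CPM in WT DMSO, 0.947 to 1.21 at 6 h and 0.42 to 0.813 at 24 h. In Nrf1KO this level was 10.8 to 13, 3.3 to 4.71 and 0.352 to 0.761 CPM. The summed level of the fibroblast markers, chiefly collagens and fibronectin, lay at 36200 to 39100 CPM in WT DMSO, 30600 to 33100 at 6 h and 8730 to 9040 at 24 h. In Nrf1KO it lay at 29400 to 35600, 30000 to 33700 and 11400 to 13500 CPM. Both falls moved with CFZ, the epithelial one already at 6 h and the larger part of the fibroblast one at 24 h. Their part in the results that follow was not tested. In bulk RNA, fewer cells of a kind and less RNA per cell cannot be told apart.

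CPM are counts relative to the library total after TMM scaling, which sets the bulk of genes level between libraries, so every change is relative to the other transcripts. Of the 10 genes, 9 passed the expression filter and were tested with 11762 genes in all. Eno1 did not pass, with 0 to 2 reads in every library. Fold changes are given on the log2 scale with their standard error (SE) and the Benjamini-Hochberg adjusted p of edgeR's quasi-likelihood test over all genes tested, and a gene was called changed at an adjusted p under 0.05.

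Per kb of exon, the only scale on which levels of different genes were compared, Gapdh was the most abundant of the 10 in WT DMSO, at 920 ± 9.6 CPM per kb (SD, n = 3). Ldha followed at 380 ± 10, Pgk1 at 297 ± 7.8 and Aldoa at 269 ± 5 CPM per kb. Gpi1 and Pgam1 lay at 126 ± 3.4 and 88.1 ± 2.2 CPM per kb. Pfkl (23.6 ± 0.33), Pfkp (12.2 ± 0.53) and Hk2 (6.31 ± 0.42 CPM per kb), which encode enzymes of the committed early steps, were the lowest of those tested. Among these 9 genes the 3 libraries of neighbours in this order did not overlap. After 24 h of CFZ in WT, Aldoa stood second at 498 ± 2.4 CPM per kb and Ldha had dropped to 91.3 ± 0.85, under Pgam1 at 114 ± 4.7.

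**Figure D1:**
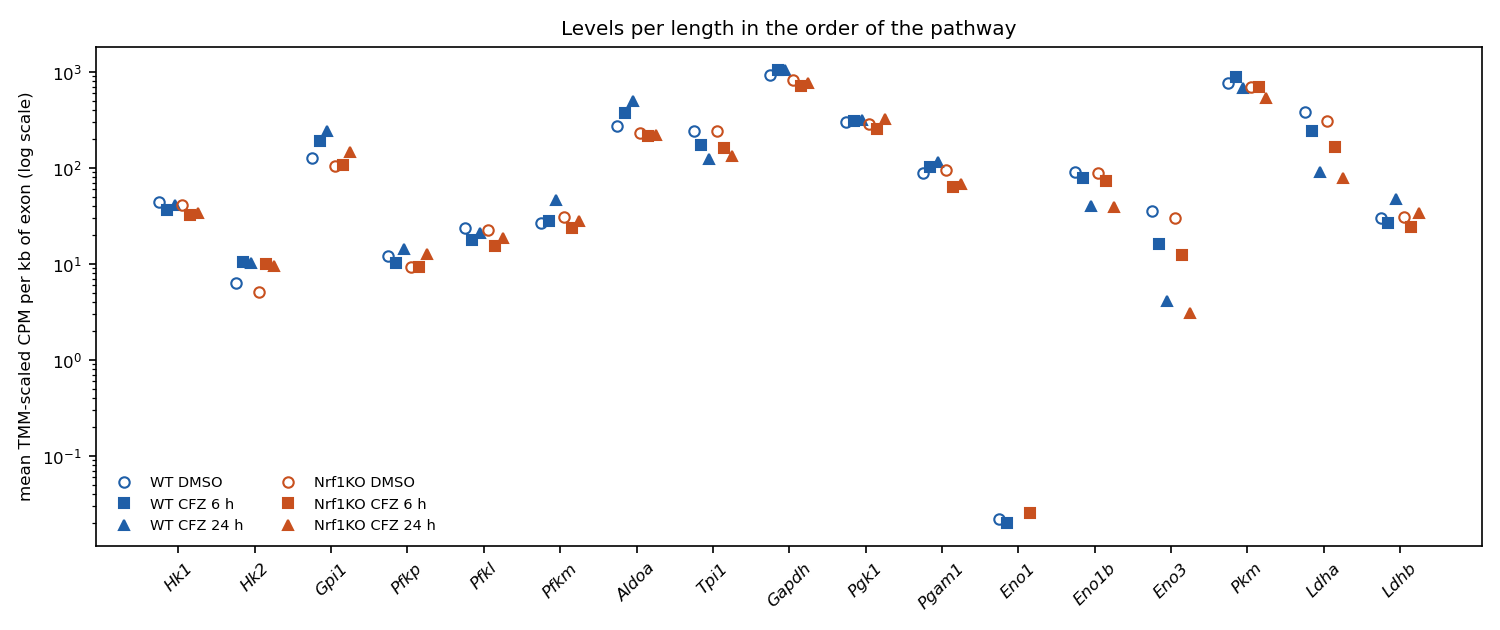
Mean TMM-scaled CPM per kb of exon, on a log axis, for the enzymes and their main isoforms in the order of the pathway; colours mark the lines and symbols the treatments, and Eno1 means of 0 are not drawn. Gapdh and Pkm stand highest, Aldoa and Gpi1 spread upwards in WT, and Ldha, Tpi1, Eno1b and Eno3 fall with CFZ in both lines.

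Promoter windows, the 250 bases before each start in RefSeq's annotation of GRCm38.p6, were matched for all 10 genes, with 15 windows in all because Aldoa, Eno1 and Ldha have more than 1 start. Windows are shown for Hk2 and Ldha, which moved the same way in both lines, and for Gpi1, Aldoa and Pgam1, whose responses differed most between the lines. Each is written 5′ to 3′ on the strand of its gene. The capitals mark ACGTG, the core of the hypoxia response element, on either strand (as ACGTG or CACGT), and the stretch GCTGAGTCA in Aldoa, which read on the other strand holds TGACNNNGC, the core of the antioxidant response element.
Hk2, chr6:82774455-82774704, minus strand: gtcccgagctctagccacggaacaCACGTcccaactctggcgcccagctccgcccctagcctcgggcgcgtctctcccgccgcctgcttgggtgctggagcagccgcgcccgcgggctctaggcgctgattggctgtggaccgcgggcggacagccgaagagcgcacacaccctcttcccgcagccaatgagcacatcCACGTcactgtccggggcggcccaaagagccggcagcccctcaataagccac
Gpi1, chr7:34230337-34230586, minus strand: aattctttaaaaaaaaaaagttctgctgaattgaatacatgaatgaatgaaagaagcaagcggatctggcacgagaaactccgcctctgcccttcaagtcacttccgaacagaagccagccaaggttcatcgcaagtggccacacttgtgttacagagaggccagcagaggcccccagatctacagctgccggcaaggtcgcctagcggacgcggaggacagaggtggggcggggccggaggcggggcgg
Aldoa, chr7:126799255-126799504, minus strand: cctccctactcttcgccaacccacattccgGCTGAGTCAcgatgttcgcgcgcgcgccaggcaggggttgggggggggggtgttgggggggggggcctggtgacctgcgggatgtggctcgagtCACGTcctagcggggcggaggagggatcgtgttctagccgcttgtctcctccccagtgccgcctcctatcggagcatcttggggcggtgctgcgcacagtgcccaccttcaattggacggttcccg
Pgam1, chr19:41911621-41911870, plus strand: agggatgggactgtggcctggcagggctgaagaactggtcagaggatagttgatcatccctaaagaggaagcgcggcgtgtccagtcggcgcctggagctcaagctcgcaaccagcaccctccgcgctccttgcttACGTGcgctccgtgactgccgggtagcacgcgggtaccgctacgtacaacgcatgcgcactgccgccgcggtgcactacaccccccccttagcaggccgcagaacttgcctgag
Ldha, chr7:46845554-46845803, plus strand: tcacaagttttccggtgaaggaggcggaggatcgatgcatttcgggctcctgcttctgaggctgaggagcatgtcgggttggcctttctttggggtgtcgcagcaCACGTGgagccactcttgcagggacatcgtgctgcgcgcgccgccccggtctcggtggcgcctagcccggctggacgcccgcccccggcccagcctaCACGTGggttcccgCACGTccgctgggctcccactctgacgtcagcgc

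ACGTG was in at least 1 window of 5 of the 10 genes (Hk2, Aldoa, Pgk1, Pgam1 and Ldha) and in 6 of the 15 windows, 2 of which overlap at Aldoa. Over all 32851 windows of that length, 16.6% held it, a share per window that has no counterpart per gene here. Some windows reach into exons of their own gene. Exons covered 245 and 250 of the 250 bases in windows of Eno1, 76 in an Aldoa window with ACGTG that is not shown, and 6 in that of Pfkp. The E-box CACGTG, every match of which also holds ACGTG, was found in 1 of the 10 genes and 1 of the 15 windows, against 6.02% of all windows. It lay at 145 to 140 and 48 to 43 bases before the Ldha start whose window is shown. TGACNNNGC was also found in 1 gene and 1 of the 15 windows, against 10.2% of all windows. It lay at 220 to 212 bases before the Aldoa start whose window is shown. Hk2 and Ldha, which moved in opposite directions with CFZ, both hold ACGTG, as do Aldoa and Pgam1. A match gives only letters in a window and no evidence that a factor binds there.

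Hk2 (chr6:82725025-82774454 in GENCODE M21 on GRCm38) encodes hexokinase 2, the inducible isoform that traps glucose as glucose 6-phosphate. It was at 35.2, 37.91 and 33.21 CPM in the WT DMSO libraries, 57.71, 57.82 and 60.63 at 6 h and 58.76, 56.84 and 58.38 at 24 h. In Nrf1KO it was at 31.13, 28.26 and 27.3 CPM in DMSO, 58.92, 56.3 and 53.84 at 6 h and 58.03, 54.03 and 48.33 at 24 h. Every CFZ library lay above every DMSO library of its line, while the 6 h and 24 h libraries overlapped. The rise was 0.73 ± 0.059 at 6 h and 0.71 ± 0.059 at 24 h in WT (adjusted p = 1.6e-12 and 1.2e-12), and 0.98 ± 0.062 and 0.90 ± 0.06 in Nrf1KO (5.2e-15 and 4.4e-15). The responses of the lines differed by 0.25 ± 0.086 at 6 h (adjusted p = 0.019). By 24 h the difference, 0.19 ± 0.084, missed the threshold (adjusted p = 0.052; 95% interval 0.02 to 0.36). The 6 h call was lost without WT DMSO replicate 2, WT 6 h replicate 1 or 2, Nrf1KO DMSO replicate 3 or Nrf1KO 6 h replicate 1, where the difference lay between 0.20 and 0.22, and over 20 alternatives its adjusted p ran from 0.0058 to 0.085.

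Gpi1 (chr7:34201330-34230336) encodes glucose-6-phosphate isomerase, which makes fructose 6-phosphate. Its WT libraries were at 372.8, 366.8 and 353.6 CPM in DMSO, 548.6, 552.3 and 549.9 at 6 h and 701.8, 698.3 and 713.5 at 24 h. The Nrf1KO libraries were at 301.5, 301.8 and 297.2 CPM, 313.6, 312.4 and 305.8, and 415.7, 431.5 and 427.7. The transcript stepped up at each time in WT with no overlap, whereas in Nrf1KO the 6 h libraries lay just above DMSO and only 24 h stood well clear. The WT changes were 0.59 ± 0.031 and 0.95 ± 0.031 (adjusted p = 2.5e-17 and 2.7e-23). In Nrf1KO the value was 0.05 ± 0.032 at 6 h, which did not pass the test (adjusted p = 0.16) and turned to -0.02 under upper-quartile scaling and -0.06 when library size was used alone, and 0.50 ± 0.031 at 24 h (adjusted p = 6.8e-16). The Nrf1KO response was the smaller, with differences of -0.54 ± 0.044 at 6 h and -0.45 ± 0.044 at 24 h (adjusted p = 1.3e-11 and 2.1e-10). Of the exonic bases of Gpi1, 12.3% overlap the gene Gm26762 on the opposite strand, and the sources used here do not say whether the counting used strand.

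The phosphofructokinase genes Pfkp (platelet isoform) and Pfkl (liver isoform) encode the enzyme that commits fructose 6-phosphate to glycolysis. Pfkp means in DMSO, 6 h and 24 h were 52.62, 43.47 and 61.51 CPM in WT and 39.9, 39.35 and 54.31 CPM in Nrf1KO. In WT it fell by 0.27 at 6 h and rose by 0.22 ± 0.044 at 24 h (adjusted p = 6.3e-06 and 3.7e-05), the latter being 0.08 and not called with upper-quartile scaling. In Nrf1KO the 6 h and DMSO libraries overlapped (-0.02 ± 0.051, adjusted p = 0.72) and the gene rose by 0.45 ± 0.045 at 24 h (1.3e-10), so that the difference of the responses was positive, at 0.25 ± 0.07 and 0.23 ± 0.063 (adjusted p = 0.0046 and 0.0027). Exons of Pitrm1 on the opposite strand overlap 17.4% of the exonic bases of Pfkp. Pfkl went from 87.98 to 65.61 and 77.7 CPM in WT and from 83.5 to 57.23 and 69.67 CPM in Nrf1KO. It fell in both lines at both times, by 0.42 and 0.18 in WT and by 0.55 and 0.26 in Nrf1KO, with adjusted p of at most 2.6e-04, and the differences of the responses, -0.12 ± 0.064 and -0.08 ± 0.06, did not pass the test (95% intervals -0.25 to 0.01 and -0.20 to 0.05).

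Aldoa (chr7:126795234-126800751) encodes aldolase A, the aldolase of muscle and of most other tissues. The WT libraries were at 497.9, 480.4 and 493.8 CPM in DMSO, 703.1, 680.3 and 671.4 at 6 h and 905.7, 904.1 and 912.5 at 24 h. The Nrf1KO libraries were at 429.6, 434.1 and 406.7 CPM, 379.8, 396.6 and 388.1, and 398.1, 406.8 and 404.7. The WT groups climbed without overlap, while the Nrf1KO libraries stayed within a narrow band in which 24 h overlapped DMSO. In WT Aldoa rose by 0.48 ± 0.032 and 0.89 ± 0.032 (adjusted p = 1.9e-14 and 7.3e-22). In Nrf1KO it was lower by a small margin, at -0.12 ± 0.033 at 6 h and -0.07 ± 0.033 at 24 h (adjusted p = 0.0014 and 0.048), and the 24 h call was lost without Nrf1KO DMSO replicate 1 or replicate 2 (-0.06 each), its adjusted p running from 1.5e-08 to 0.17 over 14 alternatives. The responses differed by -0.61 ± 0.046 at 6 h and -0.96 ± 0.046 at 24 h (adjusted p = 3.3e-12 and 1.3e-17), and this difference at 24 h lay between -1.03 and -0.93 under 20 alternative settings.

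Gapdh (chr6:125161715-125166467) encodes glyceraldehyde-3-phosphate dehydrogenase, a common reference gene for expression. Its libraries were at 1359, 1384 and 1383 CPM in WT DMSO, 1515, 1525 and 1560 at 6 h and 1563, 1547 and 1597 at 24 h. In Nrf1KO they were at 1241, 1254 and 1218 CPM, 1068, 1076 and 1041, and 1116, 1134 and 1164. CFZ libraries lay above DMSO in WT and below it in Nrf1KO, without overlap. The changes were 0.16 ± 0.03 and 0.19 ± 0.03 in WT (adjusted p = 3.2e-05 and 1.1e-06) and -0.22 ± 0.031 and -0.12 ± 0.03 in Nrf1KO (1.6e-07 and 5.4e-04). The WT calls did not hold at either time with upper-quartile scaling (0.05 and 0.05), nor at 6 h with library size alone (0.02). The difference of the responses, -0.38 ± 0.043 and -0.31 ± 0.043 (adjusted p = 1.9e-08 and 2.4e-07), held under all 20 alternative settings at each time. Of the stretches of the Gapdh transcript that are as long as 1 read of the study, 75.7% also occur in transcripts of other genes, 60 in number, so reads can be shared between them.

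Pgk1 (chrX:106187100-106203699) encodes phosphoglycerate kinase 1, which makes the first ATP of the pathway's payoff. Its means were 542.6 ± 14.2, 560 ± 18.6 and 574.4 ± 10.3 CPM in WT (SD, n = 3), and the 6 h libraries overlapped DMSO. The WT value of 0.05 ± 0.035 at 6 h did not pass the test (adjusted p = 0.24), that of 0.08 ± 0.035 at 24 h did (0.029), and both turned negative under upper-quartile scaling (-0.06 and -0.05) as well as when library size was used alone (-0.09 and -0.02). With library size alone the 6 h value in WT was called lower (edgeR adjusted p = 0.0265). The 24 h call in WT was also lost with DESeq2 (0.07), without the expression filter (0.03) and with the compared groups only (0.05). It was lost as well without WT DMSO replicate 1 (0.03) or 3 (0.08) or WT 24 h replicate 2 (0.07) or 3 (0.08). In Nrf1KO the means were 527.6, 461.8 and 587.5 CPM, a fall of 0.19 at 6 h (adjusted p = 1.5e-05) and a rise of 0.16 ± 0.035 at 24 h (1.3e-04). This rise became -0.03 with library size alone and 0.05, not called, with upper-quartile scaling. The responses differed at 6 h (-0.24 ± 0.049, adjusted p = 2.4e-04) and did not pass the test at 24 h (0.07 ± 0.049, adjusted p = 0.21). Of its stretches of read length, 66.5% also occur in the copy Pgk1-rs7.

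Pgam1 (chr19:41911923-41918660) encodes phosphoglycerate mutase 1. The WT libraries were at 151.9, 159.2 and 157.9 CPM in DMSO, 174, 180.4 and 181.4 at 6 h and 192.7, 207 and 207.4 at 24 h. The Nrf1KO libraries were at 171.8, 167 and 167.7 CPM, 115.3, 111.7 and 108.5, and 122.7, 118.2 and 122.9. It was the one gene of the 9 tested that was called higher in Nrf1KO than in WT in DMSO (0.11 ± 0.035, adjusted p = 0.0072), and under CFZ the order of the lines was the opposite, again with no overlap. In WT it rose by 0.19 ± 0.035 at 6 h and 0.38 ± 0.035 at 24 h (adjusted p = 1.5e-05 and 1.7e-11), the 6 h value being 0.06 and not called with library size alone. In Nrf1KO it fell by 0.59 and 0.48 (adjusted p = 4.9e-15 and 8.2e-14). The differences of the responses were -0.78 ± 0.051 and -0.85 ± 0.05 (adjusted p = 8.2e-14 and 1.5e-15). Of its stretches of read length, 38.8% also occur in Pgam1-ps2.

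Eno1 (chr4:150236721-150248879) encodes alpha-enolase, the main enolase of most tissues. Its row held at most 2 reads in any library, and with 3 reads as the limit that a count of 0 allows, no change could be read from it. The row Gm5506, a synonym in RefSeq of Eno1b, a copy on another chromosome, held 732 to 3964 reads per library, and 53.1% of the stretches of read length of Eno1 also occur in Eno1b. Gm5506 fell from 167.5 ± 2.65 CPM to 148.7 ± 0.553 and 74.52 ± 1.63 in WT, and from 167.3 ± 12.9 to 138.3 ± 7.63 and 72.56 ± 2.45 in Nrf1KO (SD, n = 3). At 24 h it was lower by -1.17 ± 0.047 in WT and -1.20 ± 0.046 in Nrf1KO (adjusted p = 7.9e-21 and 2.0e-21). The sum of the Eno1 and Gm5506 rows, formed after the data were seen, gave the same values of -1.17 and -1.20. Which of the loci the reads came from cannot be told apart here.

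Ldha (chr7:46841475-46855627) encodes the A subunit of lactate dehydrogenase, which favours lactate formation. The WT libraries were at 715.2, 742.3 and 705.1 CPM in DMSO, 446.7, 457.5 and 474.2 at 6 h and 171.4, 172.8 and 174.6 at 24 h. The Nrf1KO libraries were at 576, 578.2 and 586.7 CPM, 312.7, 319.9 and 305.9, and 140.9, 152 and 154.9. The groups of each line descended from DMSO to 6 h to 24 h with no overlap. Ldha changed by -0.65 ± 0.034 and -2.06 ± 0.037 in WT (adjusted p = 3.7e-17 and 3.8e-30) and by -0.89 ± 0.035 and -1.96 ± 0.037 in Nrf1KO (3.0e-20 and 8.7e-30), and it was the one gene of the 9 tested that changed at least 2-fold with CFZ against DMSO. The fall was steeper in Nrf1KO at 6 h (difference -0.24 ± 0.049, adjusted p = 1.9e-04), while at 24 h the difference of 0.10 ± 0.051 did not pass (adjusted p = 0.087, 95% interval 0.00 to 0.20), but did without Nrf1KO 24 h replicate 1 (0.14) and with upper-quartile scaling (0.13).

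**Figure D2:**
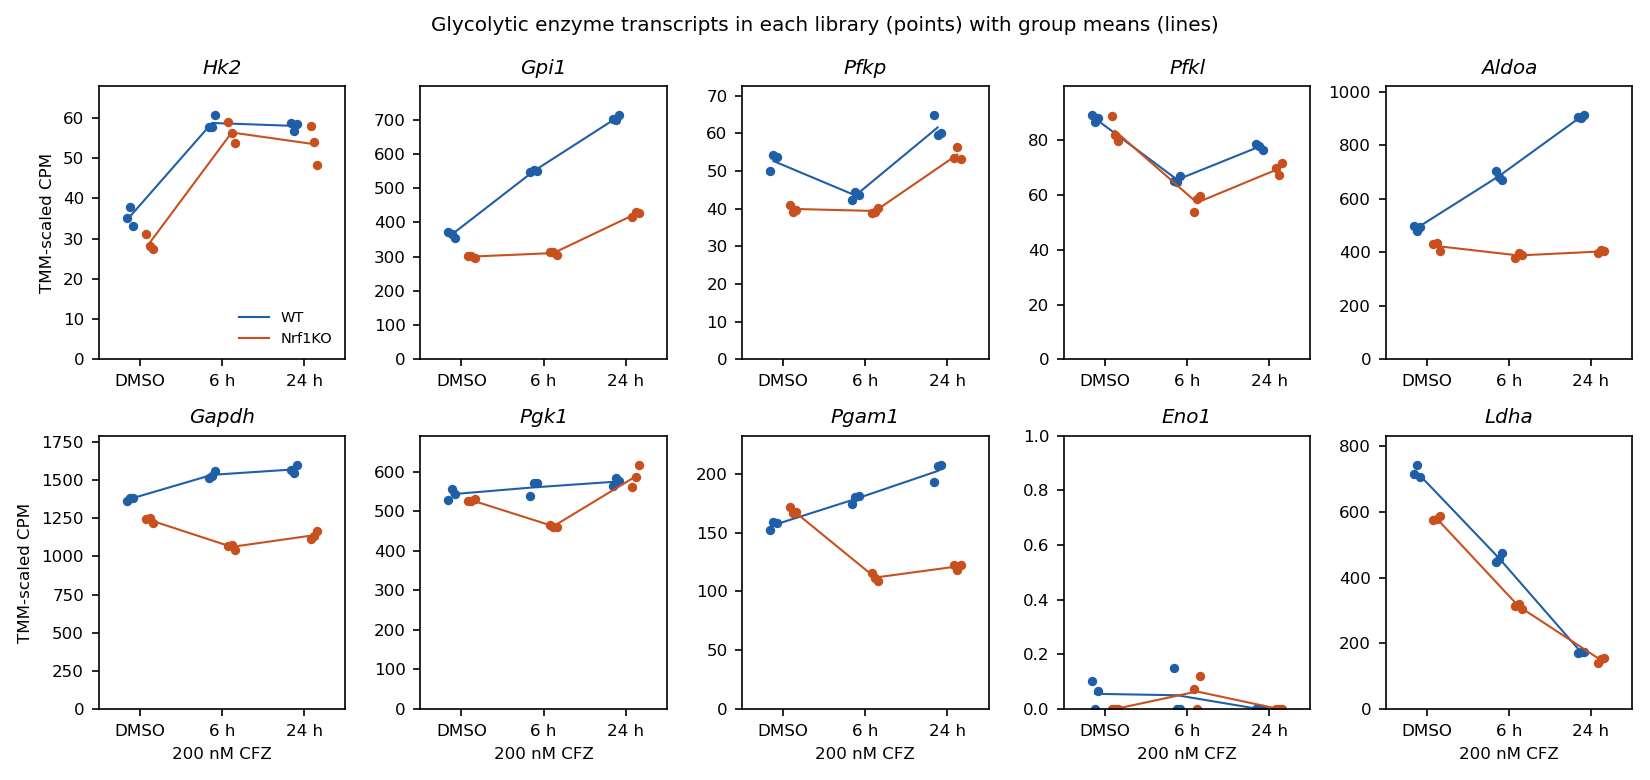
TMM-scaled CPM of each gene in each library (points, 3 per group) and group means (lines) in DMSO and after 6 h and 24 h of 200 nM CFZ, on linear axes that start at 0. Gpi1 and Aldoa climb in WT and at 24 h stand in Nrf1KO at 0.603 and 0.444 times the WT level, Pgam1 crosses, Ldha falls in both lines, and Eno1 stays at or near 0.

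Counted together, 5 of the 9 tested genes rose and 3 fell in WT at 6 h, where 71.9% of all genes tested were called (35.6% higher and 36.2% lower). At 24 h 7 rose and 2 fell, where 83.8% of all genes were called (43.2% higher and 40.5% lower). In Nrf1KO 1 rose and 6 fell at 6 h, beside 34.5% and 35% of all genes and 69.5% in either direction, and 4 rose and 5 fell at 24 h, beside 44.4% and 41.1% and 85.5% in either direction. CFZ and DMSO libraries did not overlap for 8 and 9 of the 9 genes in WT at 6 h and 24 h (74.2% and 84.6% of all genes) and for 8 at each time in Nrf1KO (70.6% and 84.3%). The shares called were not far from those of all genes. The direction differed between the lines for 3 genes at both times, with Aldoa, Gapdh and Pgam1 higher in WT and lower in Nrf1KO. Some WT calls of Gapdh and Pgam1 were lost under other scalings. The call of Aldoa in Nrf1KO at 24 h (-0.07), where libraries overlapped DMSO, was lost without Nrf1KO DMSO replicate 1 or 2. The median change of the 9 was 0.16 and 0.22 in WT and -0.19 and -0.07 in Nrf1KO, beside medians of -0.02, 0.02, -0.01 and 0.03 over all genes. With library size alone, which shifts the median of all genes to -0.15 in WT at 6 h, the WT counts at 6 h were 3 higher and 4 lower, and with upper-quartile scaling the WT counts at 24 h were 4 higher and 2 lower. The comparisons within a line share their DMSO libraries.

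From 6 h to 24 h, 5 of the 9 rose and 1 fell in WT, where 72.4% of all genes were called (36.9% higher and 35.4% lower) and where libraries did not overlap for 6 of the 9 and for 75.3% of all genes. In Nrf1KO 6 rose and 1 fell, beside 77% of all genes called (38.7% higher and 38.3% lower), and the libraries of 8 did not overlap (76.7% of all genes). In both lines Gpi1, Pfkp, Pfkl and Pgam1 rose over this span, the last in Nrf1KO by 0.11 ± 0.039 and not called without Nrf1KO 24 h replicate 1 or 3 (0.09 each) or with 2 other scalings (0.08 and 0.04), and Ldha was the one that fell, by 1.41 and 1.07. Aldoa rose in WT (0.41 ± 0.032, adjusted p = 8.8e-13), and in Nrf1KO its value was 0.05 ± 0.033 (adjusted p = 0.13), or -0.02 with library size alone. The Nrf1KO counts were 4 higher and 1 lower with upper-quartile scaling, where Gapdh (0.07) and Pgam1 lost their calls, and 4 higher and 2 lower with library size alone, where Gapdh (0.03) and Pgam1 did so and Hk2 was called lower (-0.16, as it was without Nrf1KO 24 h replicate 1). Pgk1 rose in Nrf1KO by 0.35 ± 0.035 (adjusted p = 1.8e-10) against 0.04 ± 0.035 in WT (adjusted p = 0.34).

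The interaction of genotype and CFZ, the test of whether the lines responded differently, was called for 8 of the 9 genes at 6 h, 6 of them negative, where 38.3% of all genes were called (19.8% positive and 18.4% negative). At 24 h it was called for 5, 4 of them negative (Gpi1, Aldoa, Gapdh and Pgam1) and Pfkp positive, where 59.8% of all genes were called (29.7% positive and 30% negative). With upper-quartile scaling 3 were positive and 4 negative at 24 h, Hk2 (0.22) and Ldha (0.13) being added, and with library size alone 1 was positive and 5 negative, Pfkl (-0.15) being added. The medians over the 9 were -0.24 and -0.08, beside 0.02 and 0.00 over all genes. The share of 8 in 9 at 6 h stood above the background and that of 5 in 9 at 24 h near it. The background holds all genes past the filter, while the 9 averaged from 712.9 (Hk2) to 20090 reads (Gapdh) per library. These shares therefore do not compare genes of like depth, and 1 of the 8 calls, that of Hk2, was lost when some libraries were left out.

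**Figure D3:**
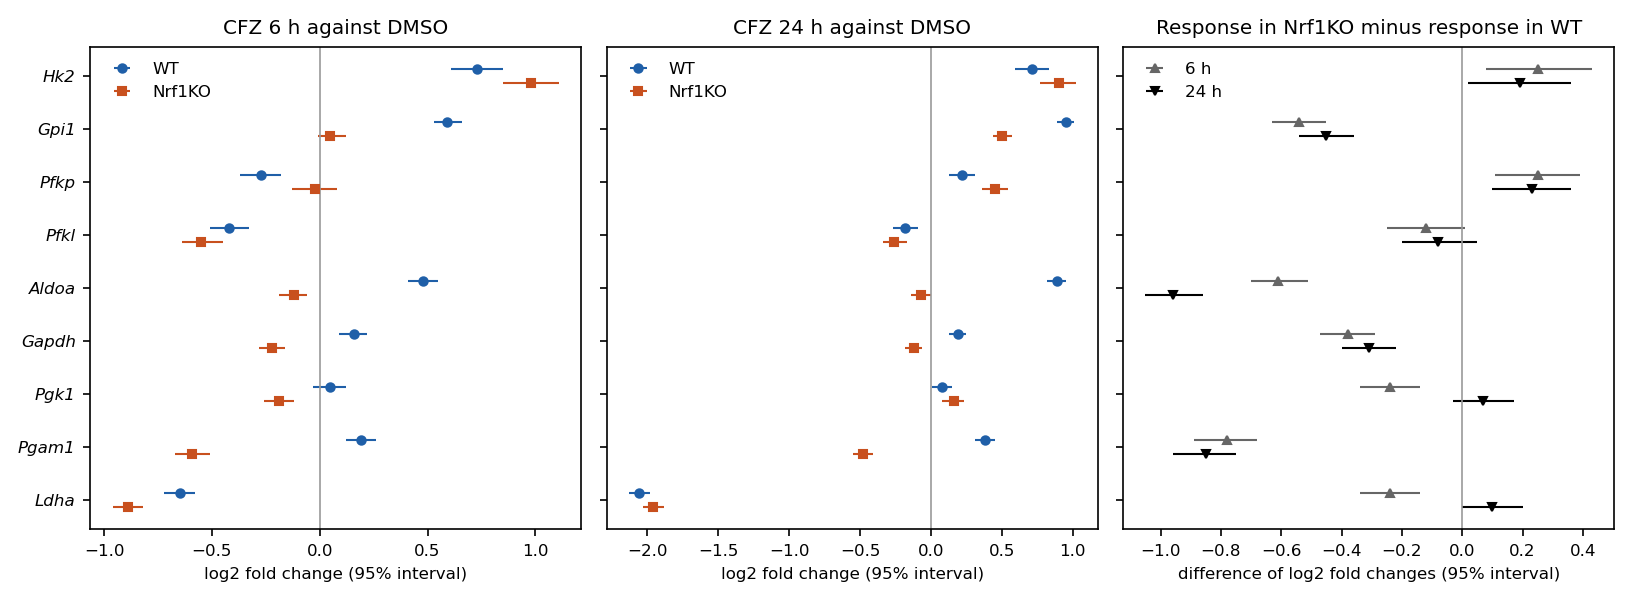
Log2 fold change of each tested gene at 6 h (left) and 24 h (middle) of CFZ against DMSO in WT (circles) and Nrf1KO (squares), and the difference of the responses (right), with 95% intervals as bars; the horizontal scales differ. Aldoa and Pgam1 lie furthest left in the right panel, at -0.96 and -0.85 at 24 h, while the intervals of Pfkl and Pgk1 at 24 h cross 0.

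Compared directly, Nrf1KO was below WT for 6 genes and above for 1 in DMSO (background 54.7% called), below for 8 at 6 h (background 61.3%) and below for 7 at 24 h (background 72%). Of all genes, 29.1%, 30.8% and 36.4% were called lower and 25.7%, 30.5% and 35.6% higher. The libraries of the lines did not overlap for 7 of the 9 genes in DMSO, 8 at 6 h and 7 at 24 h, against 59.8%, 65.4% and 72.6% of all genes. In DMSO the largest of these differences was that of Pfkp, -0.40 ± 0.045 (adjusted p = 7.8e-09). After 24 h it was that of Aldoa, at -1.17 ± 0.033 (adjusted p = 2.5e-24) or 0.444 times the WT level. Gpi1 was at 0.603 and Pgam1 at 0.597 times the WT level at that time, and Gapdh at 0.725 times. Pfkp was lower at 6 h by 0.15, a call lost with DESeq2 (-0.13), with upper-quartile scaling (-0.10), with library size alone (-0.08) and without Nrf1KO 6 h replicate 1 (-0.14). Hk2 at both CFZ times and Pgk1 at 24 h did not pass the test between the lines, but both did at 24 h without Nrf1KO 24 h replicate 1 (-0.16 and 0.08).

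Summed over the 10 rows and without TMM scaling, glycolytic transcripts took 0.400% ± 0.0045 of all counts in WT DMSO, 0.395% ± 0.0066 at 6 h and 0.421% ± 0.0033 at 24 h (SD, n = 3). In Nrf1KO the sum took 0.366% ± 0.0038, 0.280% ± 0.0037 and 0.286% ± 0.0047. Every Nrf1KO library therefore held a smaller share than every WT library, and the gap was wider under CFZ. With TMM scaling the sums were 3826.3 ± 36.7, 4134.2 ± 44.1 and 4327.9 ± 43.2 CPM in WT. In Nrf1KO they were 3390.3 ± 32.3, 2800.1 ± 34.2 and 3001.5 ± 64.1 CPM. The WT sum thus rose at 6 h with TMM scaling but not without it. Ldha gave 18.8% of the summed CPM in WT DMSO and 4% after 24 h, and 17.1% and 4.97% in Nrf1KO.

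Isoform balance was followed as the share of each gene in its family per kb of exon. Hk2 went from 12.4% ± 0.88 of Hk1 plus Hk2 to 22.3% ± 0.86 and 20.2% ± 0.21 in WT, and from 11.1% ± 0.15 to 24% ± 0.99 and 22% ± 1.1 in Nrf1KO, so Hk1 stayed the larger part. Among phosphofructokinases, the muscle isoform Pfkm grew from 42.7% ± 0.86 to 50.4% ± 1.3 and 56.8% ± 0.3 in WT, but was at 49.1% ± 1.4, 49.1% ± 0.34 and 46.9% ± 1.2 in Nrf1KO. Ldhb, the heart-type subunit of lactate dehydrogenase, grew from 7.28% ± 0.43 to 9.81% ± 0.69 and 33.9% ± 0.34 in WT and from 9.18% ± 0.41 to 12.9% ± 1.2 and 30% ± 0.7 in Nrf1KO (SD, n = 3). These shares have no test of their own, and a share can grow while its gene does not. At 6 h the Ldhb transcript itself changed by -0.18 ± 0.06 in WT and -0.36 ± 0.062 in Nrf1KO (edgeR adjusted p = 0.007 and 5.5e-06). Pfkm in WT at 6 h, at 0.08 ± 0.041, did not pass the test (adjusted p = 0.098).

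**Figure D4:**
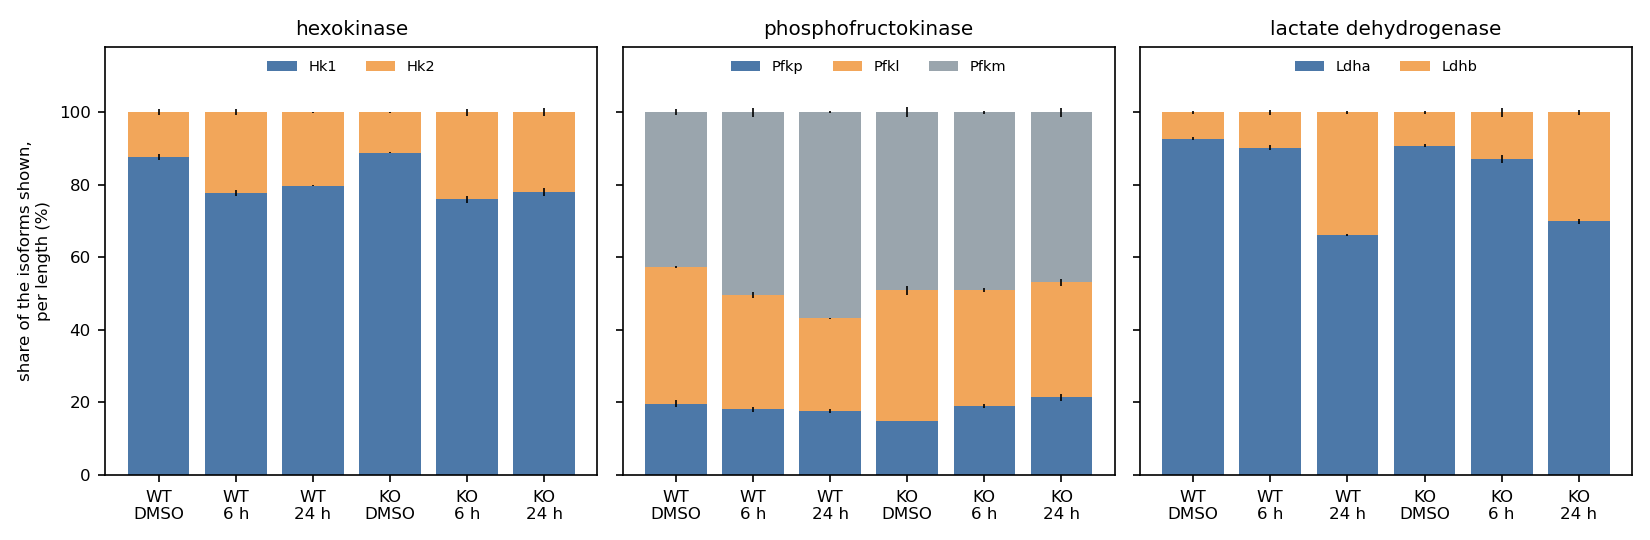
Mean share of each isoform in its family per kb of exon, in percent, as stacked bars from 0 for each group, with the SD of 3 libraries as error bars. Ldhb reaches 33.9% of lactate dehydrogenase in WT and 30% in Nrf1KO at 24 h, and Pfkm reaches 56.8% of phosphofructokinase in WT at 24 h against 46.9% in Nrf1KO.

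The other steps and isoforms of glycolysis formed a list of 19 genes, of which 10 were tested and those not tested had at most 12 reads. At 24 h, 4 rose and 4 fell in WT, and 1 rose and 5 fell in Nrf1KO. For this list and those below, the background at 24 h was 43.2% higher and 40.5% lower in WT. In Nrf1KO it was 44.4% and 41.1%. Eno3, the muscle enolase, changed by -3.08 in WT and -3.29 in Nrf1KO (SE 0.073 and 0.078, adjusted p = 7.8e-27 and 5.5e-27), and Tpi1, the triosephosphate isomerase, fell by 0.94 and 0.85 (SE 0.036 and 0.035, adjusted p = 1.9e-21 and 1.8e-20). Pfkm rose in WT by 0.79 ± 0.039 and fell in Nrf1KO by 0.14 (adjusted p = 2.2e-18 and 0.0016), a difference of -0.93 ± 0.056 (adjusted p = 2.7e-15). Ldhb rose by 0.64 ± 0.054 in WT and 0.12 ± 0.055 in Nrf1KO (adjusted p = 1.6e-12 and 0.045). In this list 6 of the 10 interactions tested were called at 24 h and all were negative, beside 59.8% of all genes called (29.7% positive and 30% negative).

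Of 11 genes of glucose and lactate transport, 6 were tested, and 4 rose and 2 fell in WT at 6 h, against 3 and 2 in Nrf1KO. The background at 6 h was 35.6% higher and 36.2% lower in WT, and 34.5% and 35% in Nrf1KO. At 24 h 1 rose and 3 fell in WT, and 1 rose and 2 fell in Nrf1KO. Slc2a1, the basal glucose transporter GLUT1, rose in WT at 6 h from 188.7 to 305.6 CPM (0.70 ± 0.037, adjusted p = 3.7e-17) and was at 160.2 CPM by 24 h. In Nrf1KO it went from 149.3 to 162.5 CPM at 6 h, a response smaller by -0.57 ± 0.054 (adjusted p = 3.2e-10). Slc2a10, another glucose transporter gene, rose in WT at 24 h by 0.56 ± 0.076 (adjusted p = 6.0e-08), with an interaction of -0.40 ± 0.11 (adjusted p = 0.003). Bsg, the chaperone of the lactate transporters, fell in Nrf1KO by 0.42 at 24 h with an interaction of -0.45 ± 0.049 (adjusted p = 2.1e-09), and Slc16a1, a lactate and pyruvate transporter, had one of 0.37 ± 0.06 (adjusted p = 3.7e-06).

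Genes that set flux into and out of the pathway (18, all tested) went both ways at 24 h, with 7 higher and 7 lower in WT and 9 higher and 7 lower in Nrf1KO. Pdk1 and Pdk2, kinases that inhibit pyruvate dehydrogenase, fell by 1.68 and 2.03 in WT and by 1.93 and 1.77 in Nrf1KO (adjusted p of at most 2.4e-16). Pdp1, the opposing phosphatase, fell too, by 1.56 and 1.85 (adjusted p = 3.7e-23 and 2.8e-26). Mpc1, a subunit of the mitochondrial pyruvate carrier, fell by 0.43 in WT and 1.59 in Nrf1KO, a difference of -1.17 ± 0.098 (adjusted p = 8.5e-12). Pfkfb3, whose product makes the activator of phosphofructokinase and which was singled out after its values were seen, rose in Nrf1KO at 24 h by 1.38 ± 0.053 (adjusted p = 2.4e-21) with a WT value of -0.01 ± 0.07 (adjusted p = 0.91) and a difference of 1.39 ± 0.088 (adjusted p = 1.1e-14).

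Branches of the pathway were also mixed. In the pentose phosphate list of 7 genes, 2 rose and 3 fell in WT at 24 h and 3 rose and 3 fell in Nrf1KO. Taldo1, transaldolase, rose by 1.69 ± 0.035 and 1.39 ± 0.035 (adjusted p = 2.6e-28 and 3.0e-26), and Rpia, ribose 5-phosphate isomerase, fell by 1.27 and 0.86 (adjusted p = 9.3e-15 and 9.3e-12). Of 15 genes of glycogen and other branches, 13 were tested, and 8 rose and 4 fell in each line at 24 h. Gfpt2, of the hexosamine branch, rose by 0.47 ± 0.07 in WT and 1.57 ± 0.073 in Nrf1KO (difference 1.10 ± 0.1, adjusted p = 9.4e-11), and Gbe1, the glycogen branching enzyme, rose by 1.31 ± 0.064 and 1.17 ± 0.057 (adjusted p = 1.8e-18 and 1.4e-18). Of 7 gluconeogenesis genes 3 were tested, of which 1 rose and 1 fell in WT and 3 fell in Nrf1KO. Pck2, the mitochondrial phosphoenolpyruvate carboxykinase, fell by 2.45 in WT and 0.94 in Nrf1KO (difference 1.51 ± 0.063, adjusted p = 3.4e-19), while Pcx, pyruvate carboxylase, rose by 0.45 ± 0.05 in WT and fell by 0.81 in Nrf1KO (difference -1.25 ± 0.078, adjusted p = 6.7e-15).

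Among 16 transcription factors of glycolytic genes and their regulators, 14 were tested, and at 24 h 7 rose and 6 fell in WT and 9 rose and 4 fell in Nrf1KO. Mlx, the partner of the glucose-sensing factor MondoA, rose by 1.54 ± 0.054 in WT and 0.82 ± 0.055 in Nrf1KO (difference -0.72 ± 0.078, adjusted p = 2.2e-09). Egln1, a prolyl hydroxylase that marks HIF-1 alpha for degradation, fell by 0.66 and 1.09 (adjusted p = 1.8e-15 and 3.3e-21). The E-box binding factor Usf1 rose by 0.58 ± 0.064 and 1.05 ± 0.058 (adjusted p = 6.6e-10 and 4.2e-17). Of 15 HIF targets outside glycolysis, 13 were tested, and at 24 h 8 rose and 5 fell in WT and 10 rose and 3 fell in Nrf1KO, with medians of 0.38 and 0.87. In this list the interaction at 24 h was positive for 8 and negative for 2 of the 13, beside 1 and 4 of the 9 glycolytic enzymes tested. Of all genes, 29.7% were positive and 30% negative. These lists were not tested against each other. Ddit4, an inhibitor of mTORC1, had the largest, falling by 0.69 in WT and rising by 1.81 ± 0.043 in Nrf1KO (difference 2.5 ± 0.064, adjusted p = 4.3e-24). Ndrg1, a stress-responsive gene, rose by 0.59 ± 0.038 in WT and 1.86 ± 0.039 in Nrf1KO (difference 1.27 ± 0.054, adjusted p = 5.5e-19). Vegfa, the angiogenic growth factor, rose in both lines, by 0.78 ± 0.046 and 1.79 ± 0.043 (adjusted p = 3.0e-16 and 1.1e-26).

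As a description over the 18 libraries, which share their treatments, lines and scaling, Pearson's r of log2 CPM between members was highest for Aldoa with Gapdh and for Gapdh with Pgam1 (0.92 each) and for Gpi1 with Aldoa (0.91). Ldha ran against Hk2 (-0.67), Pfkp (-0.52) and Gpi1 (-0.50), and Pfkl against Hk2 (-0.71). Genes outside the list that followed the mean profile of the 9 most closely were Numbl (r = 0.982), Cds2 (0.977) and Bak1 (0.973). Gpi1 was most like Psme4, which encodes the proteasome activator PA200 (0.995), Aldoa most like Mapk9 and Abcb6 (0.986 each), and Ldha most like Pmp22 (0.996).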

How the data were processed

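Stranded mRNA libraries were read in pairs, and the authors made the deposited raw counts per gene symbol with STAR and DESeq2 in an RNA Express workflow. Versions, genome build, annotation and strand use are not given in the sources used here. The counts were refitted with edgeR 4.0.16 (R 4.3.3, limma 3.58.1) in one model of the 6 groups of 3 libraries, with TMM scaling, a filter at a minimum count of 10 and a total of 15, quasi-likelihood tests and Benjamini-Hochberg adjustment over 11762 genes. Each of the 11 comparisons used the threshold 0.05. Alternatives were DESeq2 1.42.0, other scalings and filters, a replicate block, the compared groups only, and leaving out each library. In counts simulated for the interaction at 24 h, 200 genes averaging 100 counts or more were changed. The test recovered 93 of 100 changes of 0.5 (log2) and 33 of 100 of 0.25, and called 6 of the unchanged genes among 11566 tested. In the data 59.8% of all genes were called in this interaction, so these shares need not hold for the data. The members and the gene lists were chosen with earlier results of these data known. All 10 members are named; genes named from each other list were among its up to 4 with the largest change at 24 h or interaction at 24 h, of the called genes whose counts averaged 50 or more, except Pfkfb3 and, as an isoform partner or in a plot of levels, Hk1, Pkm and Eno1b. Coordinates and lengths came from GENCODE M21 by symbol, where 2 gene models carry the symbol Aldoa and the one overlapping RefSeq's was used. The symbol Tigar was matched through a RefSeq synonym. The marker Adgre1 had no row. Beside the fibroblast markers, summed levels were at most 13 CPM for epithelial, 4.33 for endothelial, 5.88 for immune and 2.66 for muscle markers. Replicates were not identical, with a chi-square per degree of freedom of 1.438 to 8.469 between them. The number of libraries and their depth limit the precision.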

Additional observations from a re-analysis of the deposited data

Results flagged for a closer look

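The response to CFZ differed between Nrf1KO and WT by an interaction test for 8 genes at 6 h. The difference (Nrf1KO minus WT, log2) was 0.25 for Hk2 (edgeR adjusted p = 0.019), -0.54 for Gpi1 (1.3e-11), 0.25 for Pfkp (0.0046), -0.61 for Aldoa (3.3e-12), -0.38 for Gapdh (1.9e-08), -0.24 for Pgk1 (2.4e-04), -0.78 for Pgam1 (8.2e-14) and -0.24 for Ldha (1.9e-04). At 24 h it differed for 5 genes, by -0.45 for Gpi1 (2.1e-10), 0.23 for Pfkp (0.0027), -0.96 for Aldoa (1.3e-17), -0.31 for Gapdh (2.4e-07) and -0.85 for Pgam1 (1.5e-15). Groups of 3 libraries were not tested for outlying samples.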

How the results depend on the processing

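Of 1494 recomputed fold changes of the 9 tested genes, 1432 kept their direction and their side of the threshold, 30 lost a call, 17 gained one and 15 turned in direction. The negative interactions of Gpi1, Aldoa, Gapdh and Pgam1 and the positive one of Pfkp kept sign and call under all 20 alternatives at each time. For Pfkp the highest adjusted p was 0.034 at 6 h and 0.048 at 24 h. With upper-quartile scaling the values that turned were those of Pgk1 in WT at 6 h (-0.063) and 24 h (-0.054) and of Gpi1 in Nrf1KO at 6 h (-0.024). With library size alone they were those of Pgk1 in WT at 6 h (-0.086) and 24 h (-0.022), in Nrf1KO at 24 h (-0.028), in DMSO between the lines (0.007) and in the interaction at 24 h (-0.005), of Hk2 from 6 h to 24 h in WT (0.007) and between the lines at 6 h (0.014), of Gpi1 in Nrf1KO at 6 h (-0.062) and of Aldoa from 6 h to 24 h in Nrf1KO (-0.016). These scalings moved the median of all genes to between -0.151 and 0.071, and library size alone moved the share of calls that were higher from 49.6% to 35.4% in WT at 6 h, from 49.7% to 36.4% in Nrf1KO at 6 h, from 52% to 41.6% in Nrf1KO at 24 h, from 46.9% to 57.7% between the lines in DMSO, from 49.8% to 60.8% at 6 h and from 49.8% to 40% in the interaction at 24 h, and upper-quartile scaling moved it to 37.9% in WT at 6 h. The cause was not tested.

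A minimum fold of 2 left 1 of the 9 genes in WT at 24 h, in WT from 6 h to 24 h, in Nrf1KO at 24 h and in Nrf1KO from 6 h to 24 h (Ldha in each), 1 between the lines at 24 h (Aldoa) and 0 in the other 6 comparisons, because most changes were smaller.

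Leaving out each library in turn gave 8 genes called in WT at 6 h each time, 8 to 9 at 24 h and 6 each time between 6 h and 24 h, in Nrf1KO 7 each time, 8 to 9 and 6 to 7, 7 to 8 between the lines in DMSO, 7 to 8 at 6 h and 7 to 9 at 24 h, and 7 to 8 and 5 to 6 interactions at 6 h and 24 h. From 6 h to 24 h in WT, Gapdh ran from -0.016 to 0.045, negative without WT 6 h replicate 1 (-0.016) or 2 (-0.008), and Pgk1 from -0.031 to 0.051, negative without replicate 1. Calls gained and not given in other paragraphs included Pfkl between the lines in DMSO without Nrf1KO DMSO replicate 1 (-0.126). The Hk2 interaction at 24 h gained its call without WT DMSO replicate 3 (0.23), Nrf1KO DMSO replicate 1 (0.241) or Nrf1KO 24 h replicate 3 (0.255), and also without the expression filter (0.196). With library size alone, Pfkp in Nrf1KO at 6 h (-0.134) and Hk2 between the lines at 24 h (-0.147) gained calls.

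Same-numbered replicates of different groups did not deviate together over all genes (mean correlation 0.0136 over 45 pairs, none over 0.1). Such a correlation cannot exclude a batch that reached only some genes or some groups. With the replicate block as a term, Hk2 was called between the lines at 24 h (-0.122) and in the interaction at 24 h (0.176), so that 8 and 6 genes were called there, and no other call changed. In simulated counts, where 200 genes were changed, 33 of 100 differences of 0.25 were recovered. In the data 59.8% of all genes were called in that interaction at 24 h, so this share need not hold for the data. Eno1 could not be measured.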
